A study of Rattus norvegicus with 24 samples.

Results

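The genes of matrix turnover, proteoglycans and the basement membrane described here are Timp1, Mmp2, Nid1, Agrn, Bgn, Dcn, Sdc4 and Mgp, 8 of the 1422 genes that had a measured probe with a single gene symbol. They were chosen by name, and each had 1 measured probe. Every array set the kidney RNA of a rat on low salt against that of another on high salt, 1 labelled with Cy5 and the other with Cy3, within a strain. Rats were of the Dahl salt-sensitive strain SS or of SS-13BN/Mcw, the consomic derivative in which Brown Norway chromosome 13 replaces that of SS. The titles' LS and HS are taken here as low and high salt, and the time is that on the changed diet. The groups were SS at 3 days, SS overnight, SS-13BN/Mcw at 3 days and SS-13BN/Mcw overnight, with 3 rat pairs each. Both rats of a pair share the strain, so every group is a comparison of diets within a strain. The titles give 1 time per pair. By the titles some rats of a strain recur at both times, so it is not known whether the time holds for both rats of a pair. The sources used here do not give sex, age, the salt content of the diets or the region of the kidney.

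Each pair was hybridised on 2 arrays with the dyes exchanged, and the value of a pair is the mean of both arrays after each was centred on its median. Values are log ratios. Since their base and numerator are unstated, values are not turned into folds. A gene is called positive or negative by the sign of its log ratio, which says nothing here about which diet had the higher level. Arrays held values for 877 to 1412 probes. Precision is limited by the 3 rat pairs per group, since the swapped arrays of a pair are technical. Means of groups carry the SD over pairs, and differences between groups carry the standard error (SE) from the fit. Adjusted p is from limma with Benjamini-Hochberg adjustment over all probes tested in that comparison, with a threshold of 0.05. By the titles, rats 1 to 3 of a strain served at both times. Both groups of a strain therefore share those animals and are not independent. Their partners were other rats at each time, so a time difference for a shared rat lies between pairs, not within the rat. Each SS group was hybridised on slides numbered apart from the rest, so wherever an SS group is compared with another, group and slide order cannot be told apart.

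The extracellular matrix of the kidney is a thin basement membrane around tubules and capillaries and a looser interstitial matrix between them. Matrix metalloproteinases cut its proteins and tissue inhibitors of metalloproteinases (TIMPs) block those enzymes, so their balance sets how quickly matrix is removed. Small leucine-rich proteoglycans sit on collagen fibrils and bind growth factors of the TGF-beta family, heparan sulfate proteoglycans hold basement membranes and cell surfaces together, and interstitial fibroblasts make much of this material. Salt-fed Dahl SS rats are a common model of hypertension with renal scarring.

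Timp1 lay on the positive side in all 10 pairs measured on both arrays and passed the test overnight in both strains. The protein is secreted, binds the catalytic site of many metalloproteinases and is induced in injured kidneys. In SS rats at 3 days only pair 3 had both arrays, with a log ratio of 0.40. Overnight SS pairs 1, 2 and 3 stood at 0.94, 0.63 and 0.70. SS-13BN/Mcw pairs stood at 0.25, 0.10 and 0.14 at 3 days. Overnight they stood at 0.61, 0.55 and 0.97 in SS-13BN/Mcw rats. The overnight groups of both strains therefore overlapped, and all 6 of their pairs lay above the 3 SS-13BN/Mcw pairs at 3 days.

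The overnight mean of Timp1 was 0.76 ± 0.17 in SS rats (n = 3, limma adjusted p = 0.0109), the smallest p of 1139 probes tested. It was 0.71 ± 0.23 in SS-13BN/Mcw rats overnight (n = 3, limma adjusted p = 0.00627), rank 2 of 1100 probes by p. Of all probes 1.14 percent passed in SS overnight and 10.5 percent in SS-13BN/Mcw overnight. At 3 days the mean in SS-13BN/Mcw rats was 0.16 ± 0.074 (n = 3, limma adjusted p = 0.408), where 2.98 percent of probes passed. The overnight call in SS rats was lost without pair 1 (0.66, limma adjusted p = 0.174) or without pair 3 (0.79, limma adjusted p = 0.0599). That in SS-13BN/Mcw rats was lost when this group was fitted alone (limma adjusted p = 0.0558).

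For SS rats at 3 days, Timp1 had a value on all 3 arrays with the low-numbered rat in Cy5, at 0.88, 0.81 and 0.57 for pairs 1, 2 and 3. With the dyes exchanged only pair 3 had a value, at 0.24, so the group was not tested by the rule for both arrays. An array-level fit with a term for the dye orientation, added after the data were seen, uses such pairs. Its p-values count the swapped arrays of a pair, which are technical, as partly separate values. It put Timp1 in SS rats at 3 days at 0.57 ± 0.106 (SE, limma adjusted p = 0.00465), and its SS minus SS-13BN/Mcw difference at 3 days at 0.41 ± 0.141 (SE, limma adjusted p = 0.212). In the same fit the mean of the 4 groups was 0.55 (limma adjusted p = 1.25e-08).

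Between the strains overnight, Timp1 differed by 0.048 ± 0.13 for SS minus SS-13BN/Mcw (SE, limma adjusted p = 0.995), with a 95% interval of -0.25 to 0.35. Between the times it was lower at 3 days than overnight in SS-13BN/Mcw rats, by a difference of -0.55 ± 0.13 (SE, 95% interval -0.84 to -0.25). Groups did not overlap, and the pairs with a shared rat differed by -0.36, -0.45 and -0.83. This was rank 5 of 897 probes by p but did not pass (limma adjusted p = 0.276), and groups did not overlap for 22.7 percent of all probes in that comparison. With the shared rat as a fixed block the limma adjusted p was 0.0777, and as a random block 0.0911.

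The promoter of Timp1 is shown because it is the member past the threshold overnight in both strains. In the RefSeq annotation of build GRCr8, the window from 250 bases before to 50 bases after its start is chrX:3771073-3771372 on the minus strand, printed 5′ to 3′ with motif matches in capitals. Motifs searched on both strands were TGAGTNA (the AP-1 like site), AGGAAG (the Ets or PEA3 site), GGGCGG (the GC box) and TATAAA (the TATA box).
Timp1: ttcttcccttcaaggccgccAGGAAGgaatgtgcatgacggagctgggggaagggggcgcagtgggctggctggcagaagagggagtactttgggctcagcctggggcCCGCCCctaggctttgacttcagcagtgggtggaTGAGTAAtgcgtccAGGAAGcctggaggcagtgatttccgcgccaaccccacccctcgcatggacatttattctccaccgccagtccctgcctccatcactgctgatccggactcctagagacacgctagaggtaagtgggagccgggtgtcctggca
Timp1 held 1 TGAGTNA match (TGAGTAA, 108 bases before the start), 2 AGGAAG matches (230 and 94 before it) and 1 GGGCGG match on the opposite strand (142 before it). Of 33469 rat promoters of the same length, 13.7 percent held TGAGTNA, 34.5 percent AGGAAG, 33.1 percent GGGCGG and 14.2 percent TATAAA. A match describes these letters and is not evidence of a bound factor. Promoters were found for 4 of the 8 members, Timp1, Nid1, Agrn and Sdc4.

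Mmp2, gelatinase A, cuts basement membrane collagen and denatured collagen, and fibroblasts secrete it as an inactive precursor. It had a value on 15 of 24 arrays and on both arrays of 6 pairs. In SS rats at 3 days pair 1 stood at 0.29. Overnight SS pairs stood at 0.20, 0.20 and 0.27, a mean of 0.22 ± 0.039 (n = 3, limma adjusted p = 0.309). Of the SS-13BN/Mcw pairs none had both arrays at 3 days, and overnight pairs 1 and 3 stood at 0.27 and 0.65. All 6 measured pairs were thus on the positive side. The overnight SS-13BN/Mcw mean of 0.46 ± 0.27 (n = 2) passed narrowly (limma adjusted p = 0.0465). The call was lost with arrays scaled to one spread (0.37, limma adjusted p = 0.0609) and with pairs of 1 array included (0.35, limma adjusted p = 0.0736). It was also lost with the group fitted alone (limma adjusted p = 0.134) and without pair 2, which leaves the value as it is (limma adjusted p = 0.0683). The fitted overnight difference, SS minus SS-13BN/Mcw, was -0.24 ± 0.145 (SE, limma adjusted p = 0.94). The SS pairs lay below the 2 SS-13BN/Mcw pairs only by a very narrow gap, between 0.267 in SS and 0.270 in SS-13BN/Mcw. Of all probes 3.23 percent had SS wholly below SS-13BN/Mcw overnight.

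Matrix proteases and inhibitors were counted from a list of 49 genes, Timp1 and Mmp2 among them, of which 23 had a measured probe. In SS rats at 3 days 12 of 15 tested were positive and 1 passed, Serpinh1, the collagen chaperone of the endoplasmic reticulum, at 0.60 ± 0.24 (n = 3, limma adjusted p = 0.032). Overnight in SS rats 15 of 19 were positive and 2 passed, Timp1 and Serpinh1, with Serpinh1 at 0.55 ± 0.18 (n = 3, limma adjusted p = 0.0208). In SS-13BN/Mcw rats at 3 days 10 of 14 were positive, and the 2 that passed were negative. These were Mme, the brush border peptidase neprilysin, at -0.57 ± 0.092 (limma adjusted p = 0.0367), and Ctsl, the lysosomal protease cathepsin L, at -0.32 ± 0.16 (limma adjusted p = 0.0393). Overnight in SS-13BN/Mcw rats 13 of 18 were positive and 4 passed, of which Timp1, Serpinh1 at 0.54 ± 0.15 (limma adjusted p = 0.00967) and Mmp2 were positive and Mme at -0.69 ± 0.41 (limma adjusted p = 0.01) was negative. Timp2, the sister inhibitor of Timp1, averaged 0.37 ± 0.37 in SS rats at 3 days and 0.23 ± 0.17 in SS rats overnight. Timp2 averaged 0.11 ± 0.23 in SS-13BN/Mcw rats at 3 days and 0.31 ± 0.39 overnight. It passed only as the mean of the 4 groups (0.25, limma adjusted p = 0.0275), where 28.5 percent of probes passed.

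**Figure D1:**
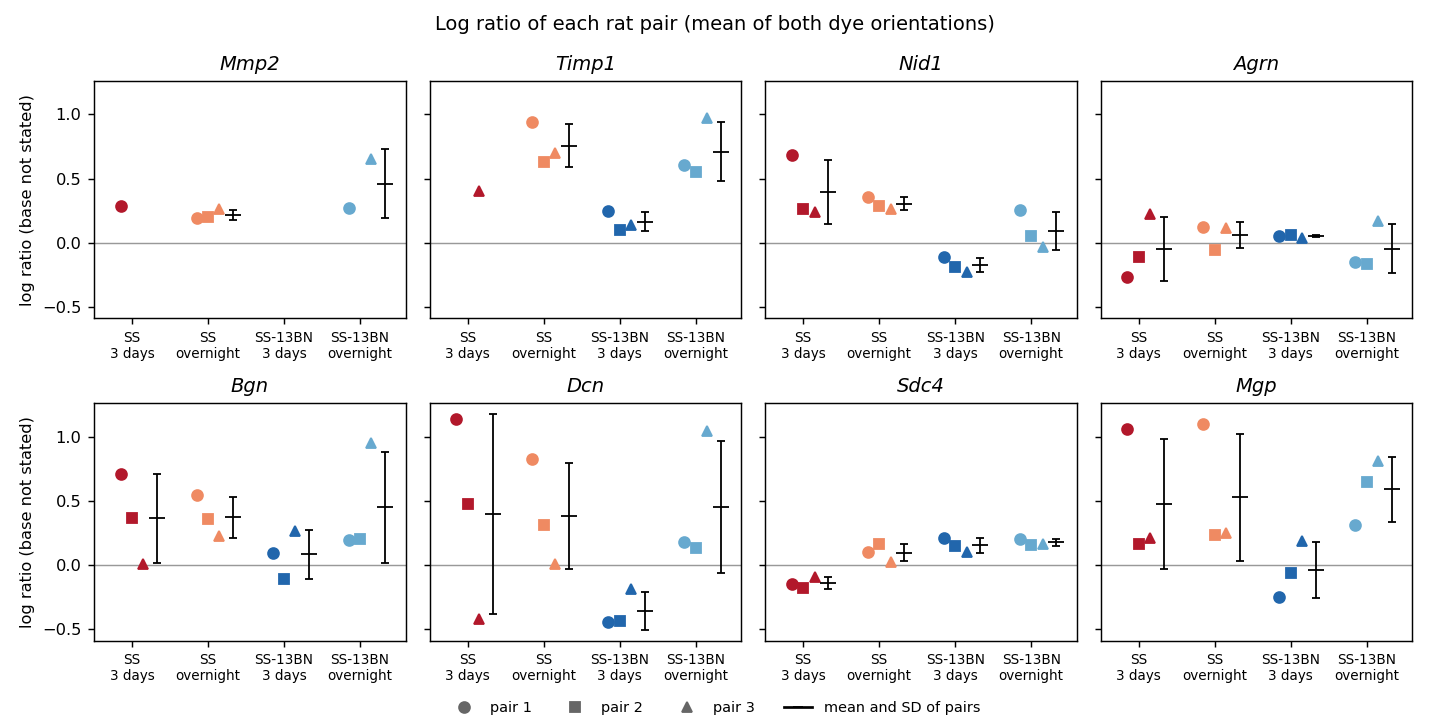
Log ratio of each rat pair (y axis, base not stated) for the 8 members in SS 3 days, SS overnight, SS-13BN/Mcw 3 days and SS-13BN/Mcw overnight (x axis). Marker shapes give pairs 1 to 3 and black lines the mean and SD; Timp1 lies above 0 in every measured pair, and Nid1 and Sdc4 take opposite sides in the 2 strains at 3 days.

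Nid1 was positive in SS and negative in SS-13BN/Mcw rats at 3 days, with the smallest p of the members for that strain difference, which did not pass. Its protein, nidogen-1, links the laminin and collagen IV networks of the basement membrane. SS pairs 1, 2 and 3 stood at 0.68, 0.26 and 0.24 at 3 days. Overnight SS pairs stood at 0.36, 0.29 and 0.27. SS-13BN/Mcw pairs stood at -0.11, -0.19 and -0.22 at 3 days. Overnight they stood at 0.25, 0.055 and -0.029 in SS-13BN/Mcw rats. All 6 SS pairs were positive, and the 3 SS-13BN/Mcw pairs at 3 days were negative.

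The SS minus SS-13BN/Mcw difference of Nid1 at 3 days was 0.57 ± 0.123 (SE, 95% interval 0.30 to 0.84), between means of 0.40 ± 0.25 in SS and -0.17 ± 0.056 in SS-13BN/Mcw rats (n = 3 each). By p it was rank 4 of 824 probes, and it did not pass (limma adjusted p = 0.116). No probe passed in that comparison in the main limma fit over pairs of median-centred arrays, and 8.37 percent had an unadjusted p under 0.05. Groups did not overlap with SS above for 8.37 percent of probes. The difference did pass with arrays scaled to one spread (limma adjusted p = 0.0403), after quantile normalization (0.0312), in the array-level fit (0.00456) and in that fit with the dye term (0.016). Without pair 1 of SS at 3 days it was 0.43 (limma adjusted p = 0.24).

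Overnight the strain difference of Nid1 was 0.21 ± 0.125 (SE, limma adjusted p = 0.928), with SS pairs above the SS-13BN/Mcw pairs by a narrow gap, as for 7.69 percent of all probes. The 3-day minus overnight difference in SS-13BN/Mcw rats was -0.27 ± 0.124 (SE, limma adjusted p = 0.431). The pairs with a shared rat differed by -0.37, -0.24 and -0.19. In SS rats it was 0.092 ± 0.12 (SE, limma adjusted p = 0.988). The strain-by-time term, which asks whether both time differences are unequal, was 0.36 ± 0.174 (SE, limma adjusted p = 0.972). As the mean of the 4 groups Nid1 stood at 0.16 ± 0.043 (SE, limma adjusted p = 0.0194). Against 0 it did not pass in a single group (limma adjusted p = 0.0763 in SS at 3 days, 0.119 in SS overnight, 0.334 in SS-13BN/Mcw at 3 days and 0.485 in SS-13BN/Mcw overnight). Both SS groups passed with arrays scaled to one spread (limma adjusted p = 0.0445 at 3 days and 0.0431 overnight) and in the array-level fit (0.00353 and 0.016).

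Nid1 is on the plus strand at chr17:93069036-93069335 in the same RefSeq window of GRCr8. It is shown beside the Timp1 promoter because its strain difference had the smallest p of the members.
Nid1: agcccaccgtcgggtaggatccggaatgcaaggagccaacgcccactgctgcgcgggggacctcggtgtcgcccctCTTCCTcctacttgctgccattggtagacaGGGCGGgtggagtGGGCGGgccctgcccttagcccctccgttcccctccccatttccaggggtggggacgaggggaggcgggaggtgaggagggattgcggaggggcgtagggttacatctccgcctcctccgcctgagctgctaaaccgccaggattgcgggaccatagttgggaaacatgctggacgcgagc
It held 2 GGGCGG matches (144 and 131 bases before the start) and 1 AGGAAG match on the opposite strand (174 before it), and no TGAGTNA or TATAAA match in these letters.

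Agrn, which encodes the heparan sulfate proteoglycan agrin of the glomerular and tubular basement membranes, stood near 0. SS pairs ran from -0.26 to 0.23 at 3 days and from -0.055 to 0.13 overnight. SS-13BN/Mcw pairs ran from 0.043 to 0.065 at 3 days and from -0.17 to 0.17 overnight. Its group means lay between -0.047 and 0.063, and none passed (limma adjusted p from 0.767 to 0.89). The SS minus SS-13BN/Mcw difference at 3 days was -0.10, with a 95% interval of -0.39 to 0.18. Agrn also had the widest mean gap between dye orientations among the members measured on all arrays.

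Of the basement membrane list, 7 of 28 genes had a measured probe, the members Nid1 and Agrn among them. Besides Nid1 in the mean of the 4 groups none passed in any comparison. Lamb2, the laminin beta-2 chain of the glomerular basement membrane, averaged -0.20 ± 0.16 in SS rats at 3 days and 0.082 ± 0.18 in SS-13BN/Mcw rats at 3 days. Lamc1, the laminin gamma-1 chain, averaged -0.029 ± 0.20 in SS rats at 3 days and -0.17 ± 0.096 in SS-13BN/Mcw rats at 3 days. The median of the list stood at -0.016 in SS at 3 days and 0.063 in SS overnight. It stood at -0.046 in SS-13BN/Mcw rats at 3 days and 0.070 overnight. The other measured genes of the list, Itgb1, Itgb4 and Sparc, code for 2 integrin chains and a collagen-binding glycoprotein.

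Dcn and Bgn encode decorin and biglycan, the small leucine-rich proteoglycans of interstitial matrix, and their values moved together from pair to pair. Dcn stood at 1.13, 0.48 and -0.42 in SS pairs 1, 2 and 3 at 3 days. Overnight SS pairs of Dcn stood at 0.82, 0.31 and 0.0099. SS-13BN/Mcw pairs of Dcn stood at -0.44, -0.44 and -0.18 at 3 days. Overnight they stood at 0.18, 0.13 and 1.05 in SS-13BN/Mcw rats. Pairs of SS at 3 days thus took both sides, and the SS-13BN/Mcw group at 3 days was the only one on the negative side in all 3 pairs.

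For Dcn no group passed against 0. Means were 0.40 ± 0.78 in SS at 3 days (limma adjusted p = 0.544) and 0.38 ± 0.41 in SS overnight (0.466). They were -0.35 ± 0.15 in SS-13BN/Mcw rats at 3 days (limma adjusted p = 0.501) and 0.45 ± 0.51 overnight (0.224), n = 3 each. Dcn was lower in SS-13BN/Mcw rats at 3 days than overnight, by a difference of -0.81 ± 0.351 (SE, limma adjusted p = 0.424). The groups did not overlap, and 11.7 percent of all probes had the 3-day pairs wholly below the overnight ones. With the shared rat as a fixed block the standard error was 0.163 and Dcn passed (limma adjusted p = 0.0454). It did not pass with that rat as a random block (limma adjusted p = 0.183). The pairs sharing rats 1, 2 and 3 differed by -0.62, -0.57 and -1.23. The unblocked fit called 0 of 897 probes, with 11.3 percent at an unadjusted p under 0.05, and the fit with the fixed block called 11 of 880. At 3 days SS minus SS-13BN/Mcw was 0.75 ± 0.35 (SE, limma adjusted p = 0.565) with overlapping pairs, and 1.16 without SS pair 3 or 0.38 without SS pair 1.

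Bgn stood at 0.71, 0.37 and 0.012 in SS pairs at 3 days. Overnight SS pairs stood at 0.54, 0.36 and 0.22. SS-13BN/Mcw pairs stood at 0.091, -0.11 and 0.27 at 3 days. Overnight they stood at 0.19, 0.20 and 0.95 in SS-13BN/Mcw rats. Of its 12 pairs 11 were positive, and all groups overlapped in both strain and both time comparisons. Group means were 0.36 ± 0.35 in SS at 3 days, 0.37 ± 0.16 in SS overnight, 0.083 ± 0.19 in SS-13BN/Mcw at 3 days and 0.45 ± 0.43 in SS-13BN/Mcw overnight (n = 3 each). None passed in limma (adjusted p = 0.354, 0.257, 0.843 and 0.0812 in that order). The overnight SS-13BN/Mcw value passed in the array-level fit (limma adjusted p = 0.0126) and was 0.20 without pair 3 (0.43). As the mean of the 4 groups Bgn passed at 0.32 ± 0.076 (SE, limma adjusted p = 0.01).

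Sdc4 encodes syndecan-4, a transmembrane heparan sulfate proteoglycan of cell-matrix adhesions, and had small values that varied little within a group. SS pairs stood at -0.14, -0.18 and -0.090 at 3 days. Overnight SS pairs stood at 0.10, 0.16 and 0.027. SS-13BN/Mcw pairs stood at 0.21, 0.15 and 0.10 at 3 days. Overnight they stood at 0.20, 0.16 and 0.17 in SS-13BN/Mcw rats. The SS group at 3 days was negative in all 3 pairs, and the other 9 pairs were positive.

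The SS minus SS-13BN/Mcw difference of Sdc4 at 3 days was -0.29 ± 0.080 (SE, 95% interval -0.47 to -0.12), rank 8 of 824 probes. It did not pass (limma adjusted p = 0.282), and for 7.4 percent of probes SS lay wholly below SS-13BN/Mcw. In SS rats the 3-day minus overnight difference was -0.23 ± 0.081 (SE, limma adjusted p = 0.988), rank 6 of 880. The pairs with a shared rat differed by -0.24, -0.34 and -0.12. No probe passed that comparison in limma, 1.93 percent had an unadjusted p under 0.05, and 4.89 percent had the 3-day pairs wholly below the overnight ones. Sdc4 in SS-13BN/Mcw rats had a time difference of -0.022 ± 0.081 (SE, limma adjusted p = 0.922), and the strain-by-time term was -0.21 ± 0.11 (SE, limma adjusted p = 0.972). Overnight the strains differed by -0.080, with a 95% interval of -0.26 to 0.10. Against 0 no group passed, the nearest being SS-13BN/Mcw overnight at 0.18 ± 0.024 (n = 3, limma adjusted p = 0.0812).

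The Sdc4 promoter, shown because Sdc4 took opposite sides in the strains at 3 days, is chr3:173592874-173593173 on the minus strand of GRCr8 in the same RefSeq window.
Sdc4: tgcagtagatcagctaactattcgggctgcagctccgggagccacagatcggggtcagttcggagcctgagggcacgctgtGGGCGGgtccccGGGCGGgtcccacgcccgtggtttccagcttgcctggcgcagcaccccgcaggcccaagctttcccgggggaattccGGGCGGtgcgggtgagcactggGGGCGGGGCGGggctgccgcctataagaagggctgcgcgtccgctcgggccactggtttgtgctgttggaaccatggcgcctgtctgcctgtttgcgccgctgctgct
It held 5 GGGCGG matches, at 169, 157, 80, 58 and 53 bases before the start, of which the last pair overlaps. The other motifs were not in these letters, and the Agrn window held none of the 4 motifs.

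From a list of 43 proteoglycan genes, the members Agrn, Bgn, Dcn and Sdc4 among them, 14 had a measured probe. In SS rats at 3 days 2 of 7 tested, Bgn and Dcn, were positive and 5 negative, with a median of -0.084. Besides the members only Sdc2, Gpc3 and Cd44 were tested there, all negative. Overnight 4 of 10 were positive in SS rats, with a median of -0.058. Of 7 tested in SS-13BN/Mcw rats, 5 were positive at 3 days (median 0.054) and 3 overnight (median -0.030). None passed in a single group, and in the mean of the 4 groups Bgn passed on the positive and Sdc2, syndecan-2, on the negative side (-0.13, limma adjusted p = 0.031). Sdc2 averaged -0.17 ± 0.083 in SS rats at 3 days and -0.20 ± 0.058 in SS-13BN/Mcw rats at 3 days, so it did not take opposite sides as Sdc4 did. Cd44, the hyaluronan receptor, averaged -0.25 ± 0.41 in SS rats at 3 days and 0.044 ± 0.062 in SS-13BN/Mcw rats at 3 days (difference limma adjusted p = 0.662). The small leucine-rich proteoglycan Lum was measured in 2 overnight SS pairs, with a mean of -0.19 ± 0.062, on the other side from Dcn and Bgn.

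Mgp encodes matrix Gla protein, a vitamin K-dependent inhibitor of calcification made by vascular smooth muscle and other mesenchymal cells. SS pairs stood at 1.06, 0.16 and 0.21 at 3 days. Overnight SS pairs stood at 1.10, 0.24 and 0.25. SS-13BN/Mcw pairs stood at -0.25, -0.059 and 0.19 at 3 days. Overnight they stood at 0.31, 0.65 and 0.81 in SS-13BN/Mcw rats. In SS rats pair 1 lay far above pairs 2 and 3 at both times, and these pairs share rat 1.

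Group means of Mgp were 0.48 ± 0.51 in SS at 3 days and 0.53 ± 0.50 in SS overnight. They were -0.040 ± 0.22 in SS-13BN/Mcw rats at 3 days and 0.59 ± 0.25 overnight (n = 3 each). None passed in limma (adjusted p = 0.332, 0.185, 0.94 and 0.0695 in that order). Overnight in SS-13BN/Mcw rats Mgp did pass with the shared rat as a random block (limma adjusted p = 0.0428), with arrays scaled to one spread (0.0494), after quantile normalization (0.0278) and in the array-level fit without and with the dye term (0.00693 and 0.00742). In SS rats overnight it passed in the array-level fit without and with that term (limma adjusted p = 0.0354 and 0.0359). Without pair 1 the SS mean at 3 days was 0.19 (limma adjusted p = 0.926) and overnight 0.24 (0.879). Mgp was lower in SS-13BN/Mcw rats at 3 days than overnight, by -0.63 ± 0.271 (SE, limma adjusted p = 0.424), without overlap. The same held for 11.7 percent of all probes, with the 3-day pairs wholly below the overnight ones. With the shared rat as a fixed block Mgp passed (SE 0.0897, limma adjusted p = 0.015), though not as a random block (0.176). The pairs sharing rats 1, 2 and 3 differed by -0.56, -0.71 and -0.62. In SS rats the time difference was -0.051 ± 0.27 (SE, limma adjusted p = 0.988), and the strain-by-time term was 0.58 ± 0.38 (SE, limma adjusted p = 0.972; 0.142 with the rat block). The mean of the 4 groups was 0.39 ± 0.095 (SE, limma adjusted p = 0.0111).

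**Figure D2:**
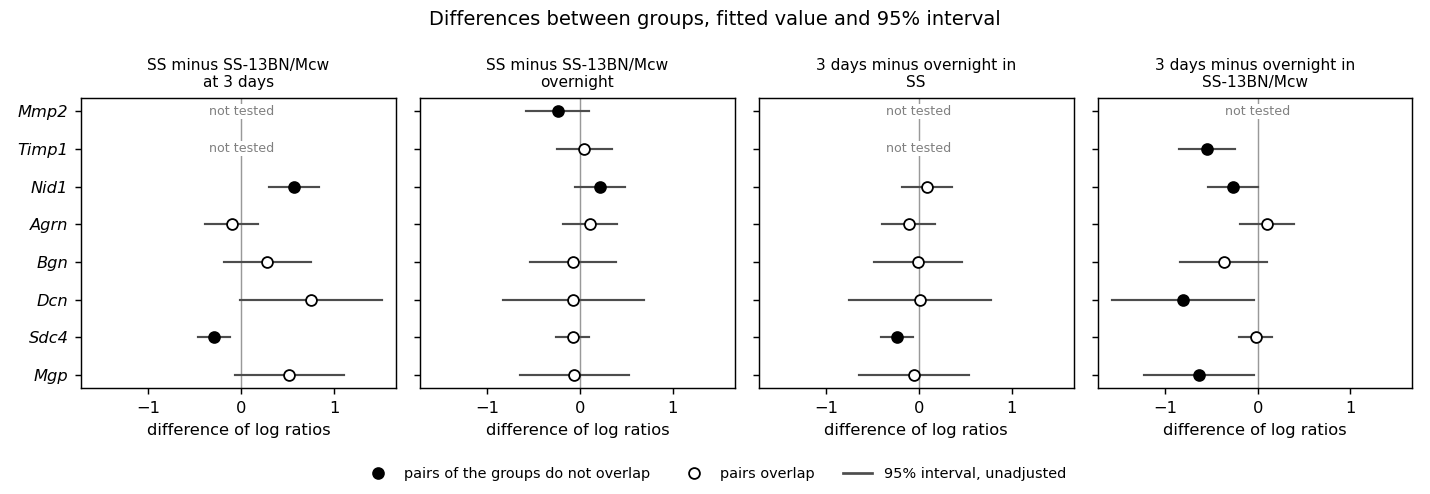
Fitted differences of log ratios (x axis) for each member (y axis) with unadjusted 95% intervals, for SS minus SS-13BN/Mcw at 3 days and overnight and for 3 days minus overnight in SS and in SS-13BN/Mcw. Filled points mark groups whose pairs do not overlap. Nid1 at 0.57 and Sdc4 at -0.29 are filled on opposite sides at 3 days. There SS lay wholly above for 8.37 percent and wholly below for 7.4 percent of all probes. Timp1, Nid1, Dcn and Mgp are filled and negative between the times in SS-13BN/Mcw, where 11.7 percent of all probes had the 3-day pairs wholly below.

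Counted over the members, 0 of 6 tested passed in SS at 3 days and 1 of 8 in SS overnight, against 0.34 and 1.14 percent of all probes. In SS-13BN/Mcw rats 0 of 7 passed at 3 days and 2 of 8 overnight, against 2.98 and 10.5 percent. The median over members was 0.38 in SS at 3 days, 0.34 in SS overnight, 0.054 in SS-13BN/Mcw at 3 days and 0.45 in SS-13BN/Mcw overnight. Over all probes these medians were -0.0054, 0.0071, -0.0030 and -0.0016. For the 3-day minus overnight difference in SS-13BN/Mcw rats 6 of 7 members were negative, with a median of -0.37, and in SS rats 4 of 6 were negative, with a median of -0.031. The medians over all probes were 0.0039 in SS-13BN/Mcw and -0.027 in SS. None of the members passed in a strain, time or strain-by-time comparison in the main limma fit, where 0 percent of all probes passed. That fit took pairs of median-centred arrays, without scaling and without the block. At an unadjusted p under 0.05, the counts were 2 of 6 members for the strains at 3 days (8.37 percent of all probes), 0 of 8 overnight (5.03 percent), 1 of 6 for the times in SS (1.93 percent) and 3 of 7 in SS-13BN/Mcw (11.3 percent). For the strain-by-time term it was 0 of 6, against 2.43 percent of all probes.

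Fibrillar collagens and their processing enzymes gave a comparison within the interstitial matrix, with 10 of 31 listed genes measured. In SS rats 8 of 8 tested were positive at 3 days (median 0.47) and 9 of 9 overnight (median 0.40). In SS-13BN/Mcw rats 4 of 8 were positive at 3 days (median 0.0056) and 9 of 9 overnight (median 0.38). Besides Serpinh1, 1 gene passed in SS overnight, Col3a1, a chain of type III collagen, at 0.71 ± 0.45 (n = 3, limma adjusted p = 0.0435), and 1 in SS-13BN/Mcw overnight, P4ha1, a collagen prolyl hydroxylase, at 0.66 (limma adjusted p = 0.0419). Col1a1, a chain of type I collagen, averaged 1.10 ± 0.58 in SS at 3 days (limma adjusted p = 0.065) and 0.95 ± 0.60 in SS overnight (0.0591). In SS-13BN/Mcw rats Col1a1 averaged 0.025 ± 0.25 at 3 days and 0.70 ± 0.28 overnight (limma adjusted p = 0.0651). Strain and time differences of these genes did not pass, the SS minus SS-13BN/Mcw difference of Serpinh1 at 3 days being 0.55 ± 0.136 (SE, limma adjusted p = 0.193).

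Among matrix glycoproteins 12 of 36 listed genes were measured, the member Mgp among them, and none passed in a single group. Spp1, osteopontin, averaged 0.12 ± 0.059 in SS at 3 days and 0.17 ± 0.085 in SS overnight, against 0.026 ± 0.072 and 0.18 ± 0.13 in SS-13BN/Mcw rats at 3 days and overnight. Ccn2, connective tissue growth factor, averaged 0.27 ± 0.38 in SS at 3 days and 0.21 ± 0.29 in SS-13BN/Mcw at 3 days. Both passed as the mean of the 4 groups (limma adjusted p = 0.0154 for Spp1 and 0.0139 for Ccn2). Of the growth factors and their receptors 9 of 28 were measured. Pdgfa, a ligand of fibroblast and pericyte receptors, passed in SS-13BN/Mcw at 3 days (0.44, limma adjusted p = 0.0273). Overnight in SS-13BN/Mcw rats Agt, the angiotensin precursor made in proximal tubules, at -0.72 (limma adjusted p = 0.0419), and the morphogen Bmp4 at -0.53 (limma adjusted p = 0.0473) passed on the negative side.

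Markers of cell types moved with several members. The samples are RNA of kidney tissue, in which fewer cells of a type and less RNA per cell cannot be told apart. Of 18 fibroblast, pericyte and smooth muscle markers 13 had a measured probe, and 6 had a value in all pairs (Thy1, Tagln, Col1a1, Pdgfra, Vim and S100a4). Pdgfrb, Fap, Rgs5, Myl9 and Col1a2 had no measured probe, and a ratio does not show whether a marker is at 0. The mean log ratio of those 6 was 0.98, 0.28 and 0.17 in SS pairs 1, 2 and 3 at 3 days and 0.81, 0.23 and 0.25 overnight. It was -0.033, -0.014 and -0.015 in SS-13BN/Mcw pairs at 3 days and 0.15, 0.25 and 0.82 overnight. Of the markers of this list that were tested, 6 were positive and 3 negative in SS at 3 days, and 7 and 4 in SS overnight. In SS-13BN/Mcw rats 5 were positive and 4 negative at 3 days, and 8 and 1 overnight. S100a4, part of the mean, averaged -0.12 in SS at 3 days and -0.021 in SS overnight. The pairs with the highest Bgn, Dcn and Mgp values, SS pair 1 at both times and SS-13BN/Mcw pair 3 overnight, were also those with the highest marker means. The part of these markers in the results for Bgn, Dcn and Mgp was not tested.

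Proximal tubule markers, with 16 of 28 measured and 8 in all pairs, had negative means throughout. They were -1.12, -0.31 and -0.21 in SS pairs at 3 days and -0.49, -0.77 and -0.33 overnight. SS-13BN/Mcw pairs had means of -0.90, -1.24 and -1.12 at 3 days and -0.74, -1.07 and -1.93 overnight. These 8 were Acsm2, Anpep, Aadat, Hao2, Gsta2, Slc15a2, Dpp4 and Aqp1, of which Aqp1 went the other way. Aqp1 averaged 0.086 and 0.11 in SS at 3 days and overnight, and 0.19 and 0.054 in SS-13BN/Mcw. Of the list's tested markers 1 was positive and 11 negative in SS at 3 days, and 2 and 12 overnight. In SS-13BN/Mcw rats 2 were positive and 13 negative at 3 days, and 2 and 14 overnight. At 3 days, where Nid1 and Sdc4 lay on opposite sides in the strains, the collecting duct marker mean ran from -0.13 to -0.066 in SS and from 0.086 to 0.37 in SS-13BN/Mcw pairs. It rests on 4 genes in all pairs, of 5 measured and 15 listed, and the mean of the thick ascending limb and distal tubule markers (5 in all pairs, of 6 measured and 12 listed) also lay apart, from -0.32 to -0.076 in SS and from -0.036 to 0.040 in SS-13BN/Mcw pairs. The collecting duct genes averaged were Fxyd4, Scnn1a, Aqp3 and Hsd11b2, and Scnn1a was positive in SS at 3 days (0.073 ± 0.013). The distal ones were Pvalb, Egf, Slc12a1, Ppp1r1a and Umod. Pvalb hardly differed, at -0.052 in SS and -0.042 in SS-13BN/Mcw at 3 days. The SS minus SS-13BN/Mcw difference at 3 days was negative for 4 of 4 tested collecting duct and 5 of 5 distal markers. The part of both lists in the results for Nid1 and Sdc4 was not tested. Only 2 of 15 endothelial, 3 of 21 leukocyte and 2 of 6 podocyte markers had a measured probe. Over all probes the SD of pair values was highest in SS-13BN/Mcw overnight pair 3 (0.485) and in SS pair 1 at 3 days (0.359).

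**Figure D3:**
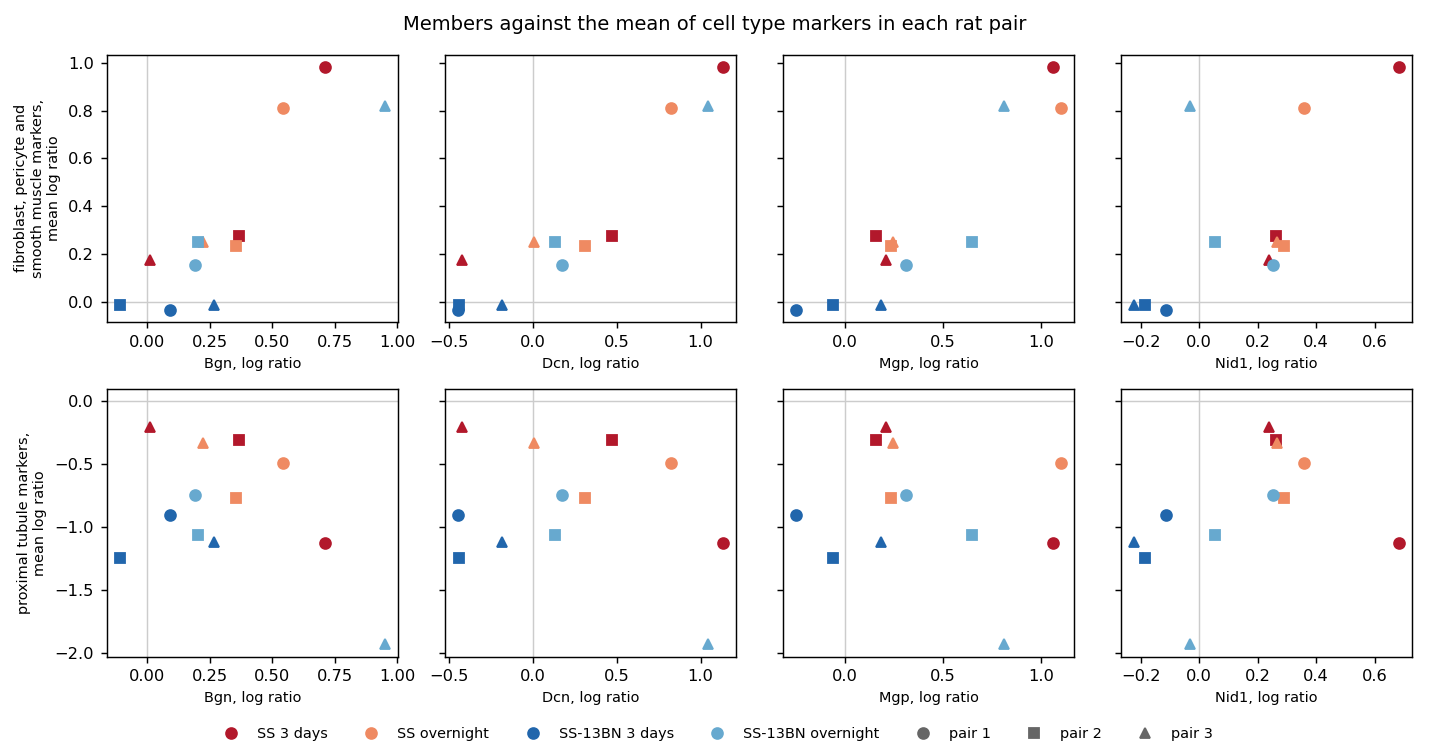
Mean log ratio of fibroblast, pericyte and smooth muscle markers (upper row, y axis) and of proximal tubule markers (lower row, y axis) against the log ratio of Bgn, Dcn, Mgp and Nid1 (x axes) in each of 12 rat pairs. Colours give the group and shapes the pair. In the upper row SS pair 1 at both times and SS-13BN/Mcw pair 3 overnight lie at the upper right for Bgn, Dcn and Mgp. For Nid1 that SS-13BN/Mcw pair lies near 0. In the lower row the proximal tubule means are -1.12 and -0.49 for SS pair 1 at 3 days and overnight, and -1.93 for SS-13BN/Mcw pair 3 overnight.

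Likeness between genes over pairs is given as a description, since pairs share rats between the times. Genes may also vary together with the cell content of the samples, which was not measured. Among members Bgn and Dcn had r = 0.934 over 12 pairs, Dcn and Mgp 0.857, and Bgn and Mgp 0.767. Nid1 and Dcn had r = 0.604, Nid1 and Sdc4 -0.581, and Sdc4 and Bgn -0.151. Of 597 other probes with a single gene symbol and a value in all pairs, those most like Dcn were Pdgfra (r = 0.983), C1s (0.968) and Lgals1 (0.948). Those most like Bgn were B2m (0.961), C1s (0.943) and Dcn (0.934). For Mgp they were Tagln (0.949), Fcgr2a (0.932) and Spink1l (0.932). Timp1, over its 10 pairs and 612 probes with a single gene symbol, was most like Nfkb1 (0.946), Serpinh1 (0.939) and Dcn (0.906). For Nid1 they were Hsd11b1 (0.867), Nkx2-1 (0.818) and Serpinh1 (0.815), for Sdc4 Ddx39b (0.858), Scaf8 (0.798) and Acaa2 (0.780), and for Agrn Gstm1 (0.759), Arl2 (0.752) and Anxa6 (0.745).

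Dye orientation shifted several members on single arrays. The gap between the array with the low-numbered rat in Cy5 and that with it in Cy3 averaged 0.42 ± 0.15 for Agrn and 0.28 ± 0.16 for Dcn, positive in 12 of 12 pairs each. It averaged -0.33 ± 0.15 for Sdc4 and -0.30 ± 0.14 for Mgp, positive in 0 of 12 pairs, and -0.26 ± 0.17 for Bgn, positive in 1 of 12. Nid1 had a mean gap of -0.081 ± 0.19, and 18.1 percent of 701 probes on all arrays had a smaller one. Timp1 had 0.29 ± 0.20 over 10 pairs and Mmp2 -0.40 ± 0.25 over 6. For Agrn 78 percent of probes had a smaller gap, for Sdc4 67.3, for Mgp 59.8, for Dcn 56.5 and for Bgn 52.8 percent. A gap of this kind leaves the pair means as they are where both arrays were measured. If the deposited ratios instead ran from dye to dye, 1 array of each pair would have to be turned. The Timp1 mean in SS overnight would then be 0.021 (limma adjusted p = 0.79), and Nid1, Bgn, Sdc4 and Mgp would be negative in the mean of the 4 groups. The SS minus SS-13BN/Mcw difference at 3 days would be 0.012 for Nid1 (limma adjusted p = 0.984) and 0.021 for Sdc4 (0.958). Over all comparisons 38 of 68 member values would change sign. Once the mean of the orientation was removed, both arrays of a pair had a positive correlation in 12 of 12 pairs (r from 0.169 to 0.825), and without that removal r ran from -0.0595 to 0.749.

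**Figure D4:**
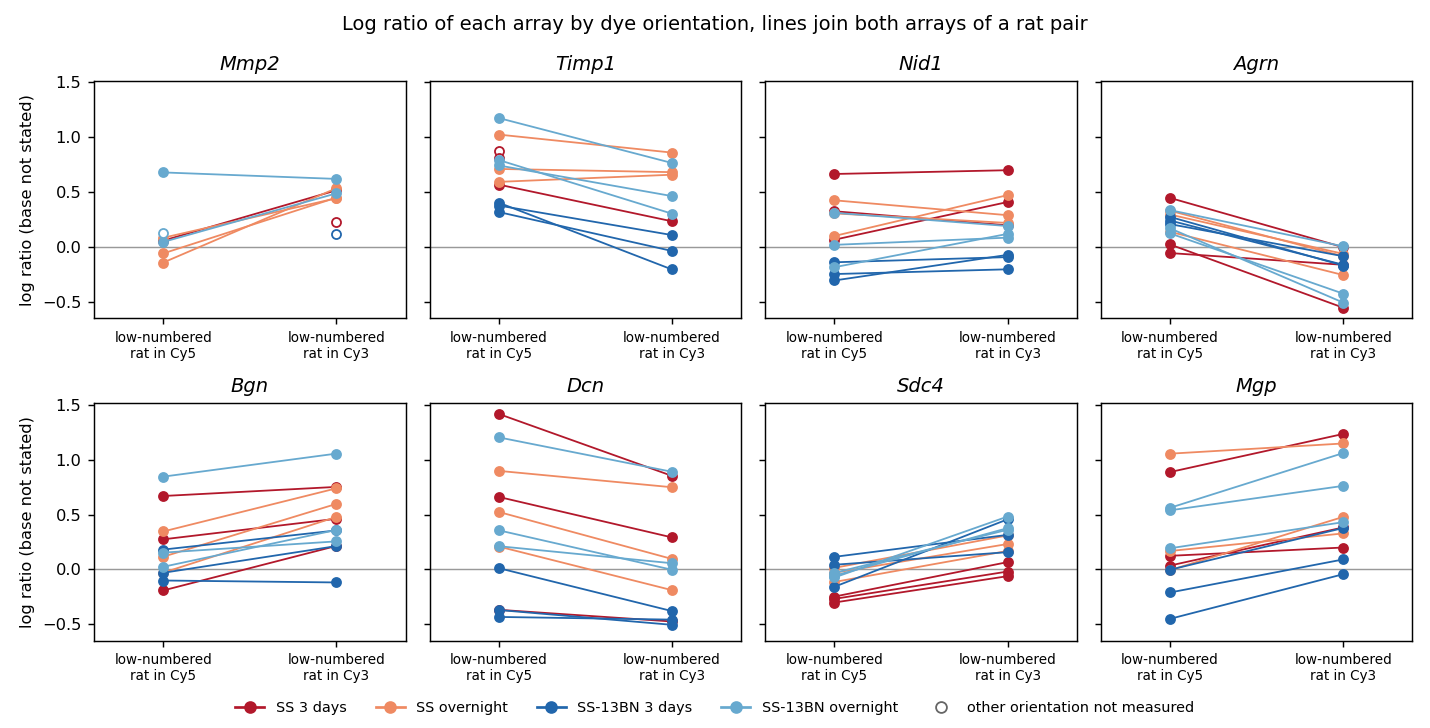
Log ratio of each array (y axis, base not stated) by dye orientation (x axis, low-numbered rat in Cy5 or in Cy3) for the 8 members, with lines joining both arrays of a rat pair and open points where the other orientation had no value. Lines of Agrn and Dcn fall and lines of Sdc4 and Mgp rise in all 12 pairs, while lines of Nid1 go both ways.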

How the data were processed

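Total RNA of rat kidney was measured on 24 cDNA arrays with Cy5 and Cy3. The authors deposited 1 log ratio per probe and array. The sources used here give neither the base of the log nor the numerator, nor what was done to the signals before. Of 3742 probe identifiers 1766 had a value and 701 had one on all arrays. Symbols came from the array's annotation, and 1421 of 1426 single symbols were found in the RefSeq gene table. Of 16 probes annotated to the members 8 had a value, 1 per gene. Groups came from the titles.

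Arrays were centred on the median, and a pair's value was the mean of its arrays of both orientations, neither of them turned. limma 3.58.1 (R 4.3.3, statmod 1.5.0) fitted 4 group means over 12 pairs with 8 residual degrees of freedom and eBayes, two-sided. Testing a probe required both arrays in 2 or more pairs of each group compared, and p was adjusted by Benjamini-Hochberg with a threshold of 0.05. In this fit the spread behind the p-values is that between rat pairs. The array-level fits instead took single arrays, with the pair as a random block and 1 correlation shared by all probes. Swapped arrays of a pair, which are technical, then count as partly separate values. The p-values of the array-level fits therefore do not measure the spread between rat pairs alone. The titles repeat rats 1 to 3 of a strain at both times. Between pairs with the same low-numbered rat, deviations from the group mean correlated at a mean r of 0.363 in SS and 0.323 in SS-13BN/Mcw. For rat 2 of SS r was -0.024. The low-numbered rat was therefore also fitted as a block.

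The members, lists and tests were chosen with earlier results of these data known. All members are named, and from each list genes past the threshold or, where none passed, those of smallest p. Simulated data held changes of 0.5 in 100 probes and of 1 in another 100, with noise drawn independently for each pair. Of the changes of 0.5, 76 percent were recovered for SS overnight (1139 probes) and 68 percent for the strains at 3 days (824 probes). Simulated SS overnight gave 182 calls, against 13 in the real data, and no rats were shared. These shares therefore do not give the power of the real comparisons. Alternatives were the scaling, quantile normalization, turning by dye, array-level fits, pairs with 1 array, all 3 pairs required, groups fitted alone, robust eBayes, rat blocks and each pair left out. The dye-term fit and the strain-by-time rat block were chosen after seeing the data. Figures used Python 3.11.15 with matplotlib 3.10.9.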

Additional observations from a re-analysis of the deposited data

Results flagged for a closer look

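These differences are listed because all pairs of one group lay on one side of 0 and all pairs of the other on the opposite side. None passed when the difference itself was tested in the main limma fit, over pairs of median-centred arrays without a block. Nid1 was positive in all SS pairs and negative in all SS-13BN/Mcw pairs at 3 days, a difference of 0.57 (adjusted p = 0.116, but 0.0403 with arrays scaled to one spread, 0.0312 after quantile normalization, 0.00456 in the array-level fit and 0.016 with the dye term). Sdc4 was negative in all SS pairs and positive in all SS-13BN/Mcw pairs at 3 days, a difference of -0.29 (adjusted p = 0.282). In SS rats Sdc4 was negative in all pairs at 3 days and positive in all overnight, a difference of -0.23 (adjusted p = 0.988). In SS-13BN/Mcw rats Dcn was negative in all pairs at 3 days and positive in all overnight, a difference of -0.81 (adjusted p = 0.424, 0.0454 with the shared rat as a fixed block and 0.183 as a random one).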

How the results depend on the processing

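Counts of probes past the threshold changed with the processing, and the cause was not tested. In SS at 3 days 3 passed, against 9 with arrays scaled to one spread, 18 after quantile normalization, 39 in the array-level fit, 32 with the dye term, 1 with all 3 pairs required, 0 fitted alone (65 at an unadjusted p under 0.05 in limma), 5 with the random replicate block, and 0 to 10 with a pair left out. In SS overnight 13 passed, against 51 scaled, 67 quantile, 61 array-level, 49 dye term, 31 alone, and 0 to 6 with a pair left out. In SS-13BN/Mcw at 3 days 27 passed, against 61 scaled, 61 quantile, 55 array-level, 62 dye term, and 0 to 29 with a pair left out. In SS-13BN/Mcw overnight 116 passed, against 218 array-level, 212 dye term, 0 alone (280 at an unadjusted p under 0.05 in limma), and 12 to 92 with a pair left out. For SS minus SS-13BN/Mcw 0 passed at 3 days in limma (69 at an unadjusted p under 0.05), against 7 scaled, 5 quantile, 7 array-level, 1 with pairs of 1 array, 8 with the dye term and 0 to 1 with a pair left out. Overnight 0 passed, and 1 with the dye term. For 3 days minus overnight in SS-13BN/Mcw 0 passed, against 9 array-level, 6 dye term and 11 with the fixed replicate block. The strain-by-time count was 0, and 0 to 1 with a pair left out. The mean of the 4 groups gave 234, and 167 to 269 with a pair left out.

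The random replicate block changed the call of Mgp in SS-13BN/Mcw overnight and the fixed one those of Dcn and Mgp between the times in SS-13BN/Mcw, as given above, and neither changed another call of a member. It gave 176 probes in the mean of the 4 groups. Turning arrays by dye gave 344, 325, 299 and 309 probes in SS at 3 days, SS overnight, SS-13BN/Mcw at 3 days and SS-13BN/Mcw overnight, and 568 in the mean of the 4 groups. By its construction it puts the dye gap in place of the pair value. It turned the sign of 38 of 68 member values. In 12 of them a call was made before or after the turn. These were Agrn in SS at 3 days (0.19), Mmp2 (-0.26) and Bgn (-0.23) in SS overnight, Sdc4 in SS-13BN/Mcw at 3 days (-0.15), and Mmp2 (-0.096), Agrn (0.26), Sdc4 (-0.23) and Mgp (-0.16) in SS-13BN/Mcw overnight. The others were Nid1 (-0.040), Bgn (-0.13), Sdc4 (-0.16) and Mgp (-0.15) in the mean of the 4 groups. With values as deposited Sdc4 passed in SS-13BN/Mcw overnight (0.20, adjusted p = 0.0483) and in the mean of the 4 groups (0.086, 0.041). Without SS pair 3 at 3 days Dcn passed in the mean of the 4 groups (0.32, 0.0307). Missing values limited Mmp2 and Timp1, which lacked values on 9 and 2 arrays, and spot signals were not used here.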
